A study of Sus scrofa with 15 samples.

Results

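The genes described here encode 10 enzymes and enzyme partners that make or break down prostaglandins and leukotrienes: PLA2G4A, PTGS1, PTGS2, PTGES, PTGES2, PTGES3, HPGD, ALOX5, ALOX5AP and LTA4H. They were chosen by name, with earlier results of these data known. Each symbol was paired with 1 of the 31908 Ensembl pig genes in the deposited count table. The libraries were made from the livers of male growing piglets of the cross Duroc x Large White x Landrace. The CON group had received sterile saline and the LPS group 80 μg/kg of LPS, a cell wall component of Gram-negative bacteria, both by injection into the abdominal cavity 4 h before the liver was taken. Each group had 3 libraries of input RNA, that is, fragmented polyadenylated RNA set aside before the m6A antibody step. The labels do not tie the libraries to named piglets, so the p-values measure only the spread between these libraries. The sources used here do not state the age of the piglets, and coordinates are those of the deposited table, whose build they do not name.

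Prostaglandins and leukotrienes are short-lived lipid mediators made from arachidonic acid. A phospholipase releases the fatty acid from membranes. Cyclooxygenases and terminal synthases turn it into prostaglandins, whereas 5-lipoxygenase and its partner protein turn it into leukotrienes. In the liver, Kupffer cells and infiltrating leukocytes are well-known sources of these mediators, and hepatocytes take up and degrade them. PTGS2 and PTGES are the enzymes of this set best known to be induced by LPS in macrophages, and HPGD starts the inactivation of prostaglandin E2.

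The CON libraries held 5927348 to 10351491 counts and the LPS libraries 4348478 to 19967417, LPS replicate 3 being the deepest. A single count was worth 0.0683 CPM (counts per 1000000, scaled with TMM factors) in that library and 0.218 CPM in LPS replicate 1, so low genes were measured less precisely in LPS replicate 1. All 10 genes passed the filter on low counts, which left 12774 tested genes. The hepatocyte markers fitted the liver label, with ALB between 12381 and 38011 CPM, while SERPINA1 stayed between 1.23 and 7.20 CPM. Because whole liver was sequenced, fewer cells of a type and less RNA per cell cannot be told apart.

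With all 6 libraries none of the 10 genes passed edgeR's quasi-likelihood test when an adjusted p below 0.05 and a change of more than 1.5-fold were required, which 0.0548% of all tested genes met. DESeq2 called 0 of the 10 as well, with 2.81% of its genes called (1.85% higher, 0.951% lower) and no adjusted p given for PTGS2, and limma-voom called 0, with 0.0157% called. At an unadjusted p below 0.05, edgeR gave 2 of the 10 genes, PTGES and LTA4H, both higher in the LPS group, where 6.18% of all tested genes were higher at that level and 6.33% lower. The log2 fold change was above 0 for 9 of the 10 genes, with a median of 0.61 against 0.01 over all tested genes. When libraries were scaled to total counts these medians were 0.46 and -0.12. In 0 of the 10 genes did all 3 LPS libraries lie on 1 side of all 3 CON libraries, whereas 16.3% of all tested genes had such groups (6.52% with LPS higher, 9.8% with LPS lower).

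The LPS libraries were not alike. LPS replicate 2 lay within the range of the CON libraries for 6 of the 10 genes, as it did for 50.2% of all tested genes. LPS replicate 3 was the highest of the 6 libraries for 4 of the 10 (PLA2G4A, PTGS2, PTGES and LTA4H) and the lowest for HPGD, against 27.2% and 24.3% of all tested genes. Leaving out LPS replicate 2 led edgeR to call 3 of the 10 genes, PTGES and LTA4H as higher and HPGD as lower, where 7.2% of the genes tested in that fit were called (3.76% higher, 3.45% lower). Leaving out LPS replicate 3 left 0 of the 10 called, where 0.461% were called (0.31% higher, 0.151% lower). Without any filter on low counts edgeR called PTGES and LTA4H, where 3.76% of the genes tested in that fit were called (2.28% higher, 1.48% lower).

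**Figure D1:**
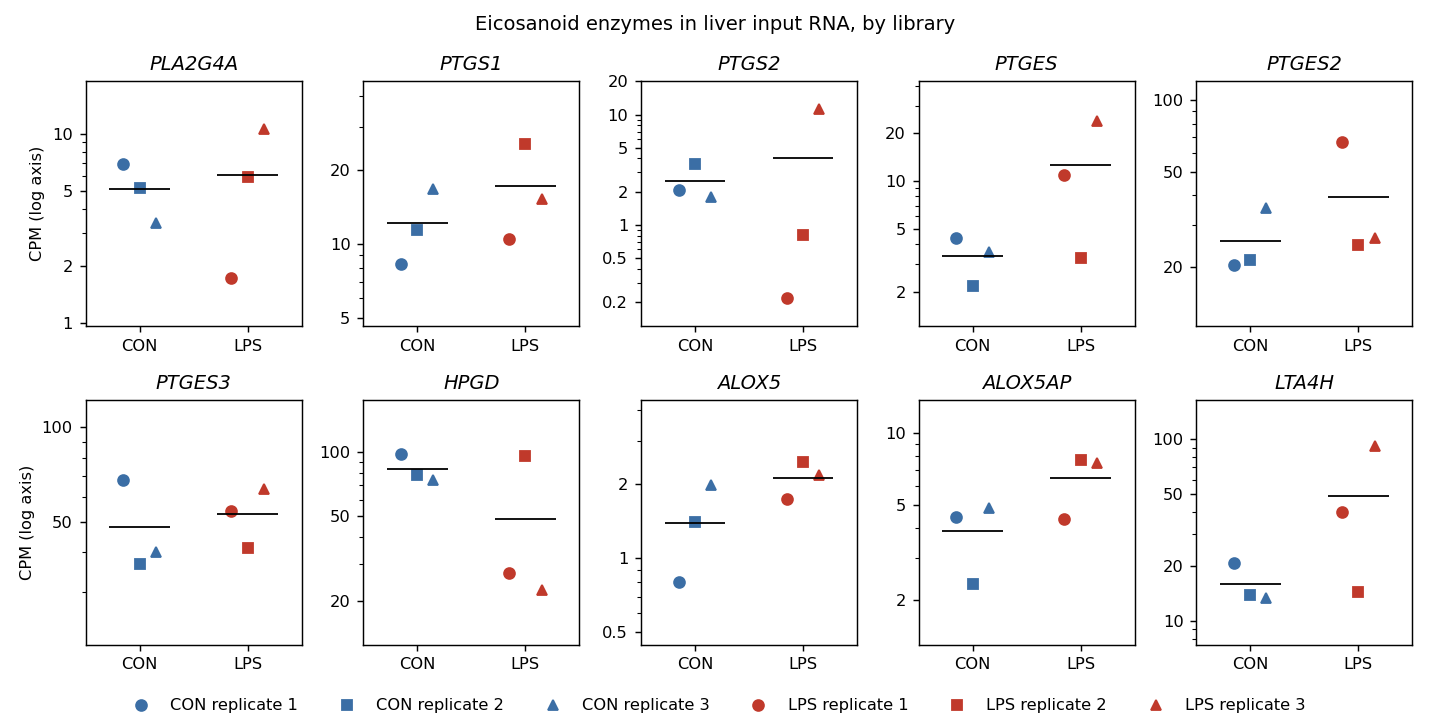
CPM on a log axis for each of the 10 genes, with 1 point per library (CON blue, LPS red, the marker shape giving the replicate number) and a line at each group mean. PTGS2 spans 0.218 to 11.2 CPM among the LPS libraries and 1.78 to 3.59 CPM among the CON libraries, and in every panel the groups overlap.

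PLA2G4A (ENSSSCG00000023351) encodes cytosolic phospholipase A2, which releases arachidonic acid from membrane phospholipids. It had 6.88, 5.16 and 3.36 CPM in CON replicates 1, 2 and 3, and 1.74, 5.89 and 10.5 CPM in LPS replicates 1, 2 and 3. The LPS group thus held both the lowest and the highest of the 6 values, and the groups overlapped. The fitted log2 fold change was 0.28 ± 0.58 (standard error, SE, edgeR, adjusted p = 0.878), with a 95% interval from -1.01 to 1.56, and it was -0.38 without LPS replicate 3.

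PTGS1 and PTGS2 encode the cyclooxygenases COX-1 and COX-2, which commit arachidonic acid to prostaglandins, and PTGS2 is the inducible form. PTGS2 (ENSSSCG00000015579, chromosome 9 from 127850013 to 127858884, minus strand) had 2.06, 3.59 and 1.78 CPM in the CON libraries and 0.218, 0.818 and 11.2 CPM in LPS replicates 1, 2 and 3. LPS replicates 1 and 2 were below every CON library, and LPS replicate 3 was above every CON library. These values rest on 23, 23 and 18 counts in the CON libraries and on 1, 5 and 164 counts in the LPS libraries. Relative to the summed CON counts, the level was 0.0944 in LPS replicate 1, with an exact 95% interval from 0.00235 to 0.545. In LPS replicate 2 it was 0.354 (0.111 to 0.870), and in LPS replicate 3 it was 4.85 (3.61 to 6.58). These intervals cover counting error only.

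The fitted log2 fold change of PTGS2 was 0.84 ± 1.01 (SE, edgeR, adjusted p = 0.770), with a 95% interval from -1.43 to 3.11. It became -2.11 without LPS replicate 3 (adjusted p = 0.318 in edgeR) and 1.33 without LPS replicate 2 (adjusted p = 0.423). The standard deviation of log2(CPM + 0.5) among the LPS libraries was 2.12, larger than in 99.2% of all tested genes, against 0.45 among the CON libraries. PTGS1, the constitutive form (ENSSSCG00000005533, chromosome 1, 262456155 to 262483035), had 8.31, 11.4 and 16.8 CPM in the CON libraries and 10.5, 25.7 and 15.3 CPM in the LPS libraries. Its highest value was in LPS replicate 2, where PTGS2 was low, and 2 of its 3 LPS values lay within the CON range. The log2 fold change of PTGS1 was 0.50 ± 0.42 (SE, edgeR, adjusted p = 0.670), with a 95% interval from -0.45 to 1.44.

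A ratio of both genes within a library does not depend on how libraries are scaled. PTGS2 made up 19.8%, 24.0% and 9.57% of the summed PTGS1 and PTGS2 counts in CON replicates 1, 2 and 3. It made up 2.04% in LPS replicate 1 (95% Wilson interval 0.361% to 10.7%), 3.09% in LPS replicate 2 (1.33% to 7.02%) and 42.3% in LPS replicate 3 (37.4% to 47.2%). PTGS1 was therefore the more abundant in every library. As point values, the shares of PTGS2 in LPS replicates 1 and 2 were below those of every CON library. The Wilson intervals of both lay below those of CON replicates 1 and 2 but overlapped that of CON replicate 3 (6.14% to 14.6%). Counting error alone thus does not separate these 2 shares from CON replicate 3. In LPS replicate 3 the share and its interval lay above those of every CON library. The log2 ratio of PTGS2 to PTGS1 per kilobase was -2.42 ± 0.82 in CON libraries against -3.57 ± 2.59 in LPS libraries (SD, n = 3 each). A two-sided exact permutation test gave p = 0.4 (0.8 after Benjamini-Hochberg adjustment over 4 ratios), where the smallest possible value with 3 libraries per group is 0.1.

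**Figure D2:**
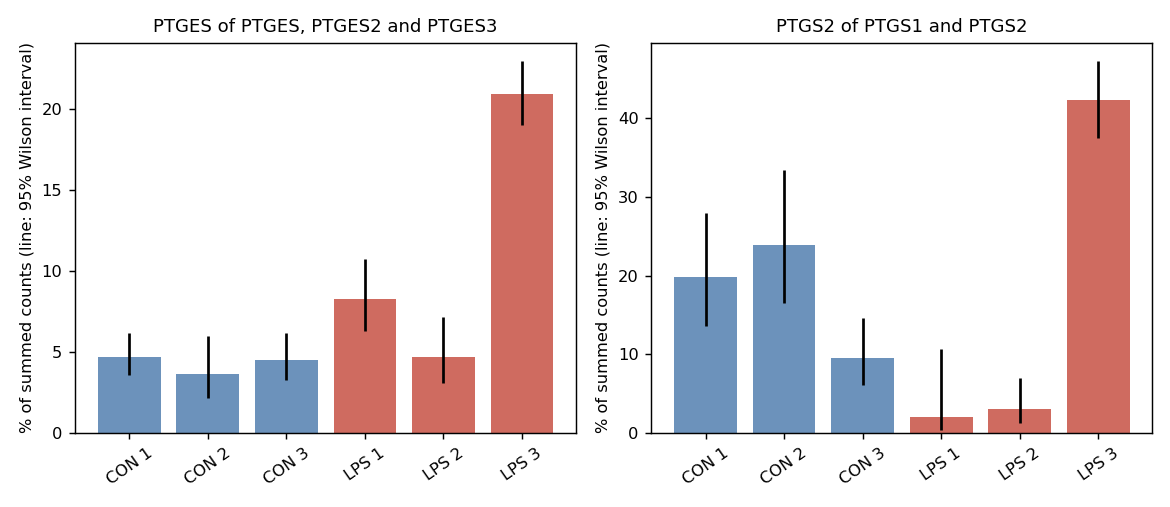
Percent of the summed counts of PTGES, PTGES2 and PTGES3 that were PTGES (left) and of PTGS1 and PTGS2 that were PTGS2 (right) in each library, CON in blue and LPS in red, with lines for 95% Wilson intervals of counting error. PTGS2 holds 42.3% in LPS replicate 3 and 2.04% and 3.09% in LPS replicates 1 and 2, while PTGES holds 20.9% in LPS replicate 3 and 3.62% to 4.72% in the CON libraries.

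PTGS2 and PLA2G4A are neighbours in the pig genome. They lie head to head on opposite strands of chromosome 9, with PLA2G4A running from 127859051 to 128162636 on the plus strand, and their annotated starts are 167 bases apart. Of the 15870 minus-strand genes in the table, 3.97% have a plus-strand start within that distance upstream. The deposited spans of the pair do not overlap. Both genes had their lowest value in LPS replicate 1 and their highest in LPS replicate 3, whereas in LPS replicate 2 PLA2G4A lay within the CON range and PTGS2 below it.

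The terminal synthases that convert prostaglandin H2 to prostaglandin E2 are the inducible microsomal PTGES, the membrane-associated PTGES2, and PTGES3, which is better known as p23, a co-chaperone of HSP90. The pig PTGES gene (ENSSSCG00000005688) lies between 269911789 and 269924462 on chromosome 1. It had 4.38, 2.19 and 3.56 CPM in the CON libraries and 10.9, 3.27 and 23.8 CPM in LPS replicates 1, 2 and 3. LPS replicates 1 and 3 exceeded every CON library, and LPS replicate 2 lay inside the CON range. Its log2 fold change of 1.91 ± 0.64 (SE, 95% interval 0.49 to 3.33) was the largest of the 10 genes, with an unadjusted p of 0.0137 and an adjusted p of 0.270 in edgeR. Once LPS replicate 2 was left out PTGES passed the thresholds, at a log2 fold change of 2.36 ± 0.47 (SE, edgeR, adjusted p = 0.0152). Without LPS replicate 3 it was 1.05 (edgeR adjusted p = 0.479), and over all alternatives the log2 fold change stayed between 1.05 and 2.36.

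PTGES2 (ENSSSCG00000022655) lies on the same chromosome, between 268583439 and 268590855. This gene had 20.5, 21.6 and 35.5 CPM in the CON libraries and 66.9, 24.9 and 26.6 CPM in the LPS libraries. Its high value was in LPS replicate 1, and not in LPS replicate 3 as for PTGES. The log2 fold change was 0.60 ± 0.44 (SE, edgeR, adjusted p = 0.613) and was 0.00 without LPS replicate 1. PTGES2 overlaps an unnamed gene on the opposite strand, which held 523 counts over all libraries, against 1574 for PTGES2. Since the strand setting of the counting is not given, reads of this pair are uncertain. PTGES3 (ENSSSCG00000000406, chromosome 5, 22000339 to 22021663) had 68.0, 36.7 and 40 CPM in the CON libraries and 54.3, 41.2 and 63.6 CPM in the LPS libraries. All 3 LPS values lay within the CON range, and the log2 fold change was 0.14 ± 0.34 (SE, 95% interval -0.63 to 0.90, edgeR, adjusted p = 0.902), or -0.03 with libraries scaled to total counts.

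The make-up of the prostaglandin E synthases was read as a share of their summed counts. PTGES held 4.72%, 3.62% and 4.50% in the CON libraries and 8.25%, 4.72% and 20.9% in LPS replicates 1, 2 and 3. The Wilson intervals of LPS replicate 3 (19.0% to 22.9%) and LPS replicate 1 (6.31% to 10.7%) lay above those of every CON library, whereas that of LPS replicate 2 (3.07% to 7.17%) did not. The log2 ratio of PTGES to PTGES3 per kilobase was -3.31 ± 0.30 in CON libraries against -1.94 ± 1.11 in LPS libraries (SD, n = 3 each), with p = 0.2 in the exact permutation test (0.8 adjusted over 4 ratios).

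HPGD encodes 15-hydroxyprostaglandin dehydrogenase, which oxidises prostaglandin E2 to a far less active product. The pig HPGD gene (ENSSSCG00000009699) lies between 15718266 and 15763710 on chromosome 14. It had 98.2, 78.6 and 73.8 CPM in the CON libraries and 27.3, 95.9 and 22.5 CPM in LPS replicates 1, 2 and 3. LPS replicates 1 and 3 were 3.06 and 3.71 times below the CON mean, and LPS replicate 2 was within the CON range. With all libraries the log2 fold change was -0.78 ± 0.52 (SE, 95% interval -1.94 to 0.38, edgeR, adjusted p = 0.570). Without LPS replicate 2 HPGD was called lower, with a log2 fold change of -1.75 ± 0.35 (SE, edgeR, adjusted p = 0.0161). Over all alternatives the log2 fold change lay between -1.75 and -0.42. An unnamed gene on the same strand overlaps the span of HPGD and held 243 counts over the 6 libraries, against 3389 for HPGD. The division of reads between them is therefore uncertain.

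PTGES and HPGD stand at opposite ends of the prostaglandin E2 route, and the libraries in which they departed from the CON range were the same. LTA4H, which is not part of that route, departed from it in the same libraries. Of all tested genes, 30.8%, 50.2% and 27.9% lay within the CON range in LPS replicates 1, 2 and 3. A link between PTGES and HPGD was not tested. In LPS replicate 1 PTGES was 3.23 times and HPGD 0.326 times the CON mean, and in LPS replicate 3 the values were 7.06 and 0.270. In LPS replicate 2 they were 0.969 and 1.15. PTGS2 did not share this pattern, at 0.0881, 0.330 and 4.52 times the CON mean in LPS replicates 1, 2 and 3. The log2 ratio of PTGS2 to HPGD per kilobase was -4.32 ± 0.60 in CON libraries against -3.93 ± 3.21 in LPS libraries (SD, n = 3 each), with p = 1.0 in the exact permutation test.

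**Figure D3:**
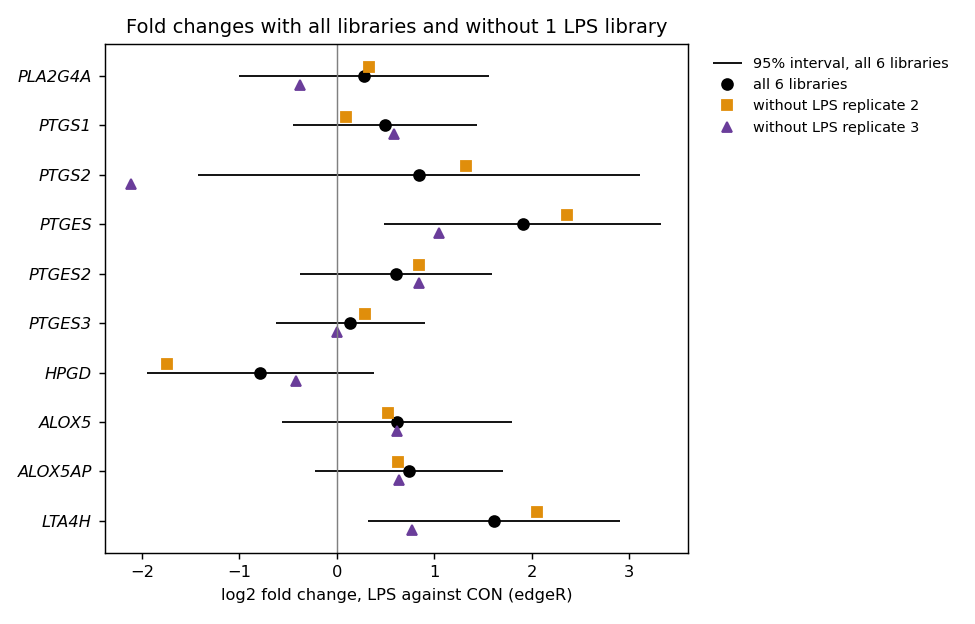
log2 fold changes (LPS against CON, edgeR) of the 10 genes with all 6 libraries (black point, line for the 95% interval), without LPS replicate 2 (orange square) and without LPS replicate 3 (purple triangle). PTGS2 moves from 0.84 to -2.11 without LPS replicate 3, and PTGES, LTA4H and HPGD move away from 0 without LPS replicate 2.

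Leukotriene synthesis begins with 5-lipoxygenase (ALOX5), which needs the membrane protein FLAP (ALOX5AP) to receive arachidonic acid, and LTA4H then makes leukotriene B4, a neutrophil attractant. The pig LTA4H gene (ENSSSCG00000000891) lies between 87486512 and 87518515 on chromosome 5. It had 20.7, 13.9 and 13.3 CPM in the CON libraries and 39.7, 14.4 and 92.0 CPM in LPS replicates 1, 2 and 3. As for PTGES, LPS replicates 1 and 3 exceeded every CON library, and LPS replicate 2 lay inside the CON range. The log2 fold change was 1.61 ± 0.58 (SE, 95% interval 0.32 to 2.90), with an unadjusted p of 0.0196 and an adjusted p of 0.306 in edgeR. LTA4H, too, passed the thresholds once LPS replicate 2 was left out, at a log2 fold change of 2.05 ± 0.41 (SE, edgeR, adjusted p = 0.0157). It was 0.77 without LPS replicate 3 (edgeR adjusted p = 0.518).

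ALOX5 (ENSSSCG00000010404, chromosome 14, 90858975 to 90907094) was the least abundant of the set per length in the CON group, with 9, 9 and 20 counts in the CON libraries and 8, 15 and 32 counts in the LPS libraries. This corresponds to 0.804, 1.41 and 1.98 CPM and to 1.74, 2.45 and 2.18 CPM, and the groups overlapped. Its log2 fold change of 0.62 ± 0.53 (SE, edgeR, adjusted p = 0.671) had a 95% interval from -0.56 to 1.80. ALOX5AP (ENSSSCG00000009330, chromosome 11, 7411644 to 7438108) had 4.47, 2.34 and 4.84 CPM in the CON libraries and 4.36, 7.69 and 7.51 CPM in the LPS libraries. LPS replicates 2 and 3 exceeded every CON library and LPS replicate 1 did not. Its log2 fold change was 0.74 ± 0.43 (SE, 95% interval -0.22 to 1.71, edgeR, adjusted p = 0.516). The log2 ratio of ALOX5AP to LTA4H per kilobase was -0.71 ± 0.55 in CON libraries against -1.20 ± 1.45 in LPS libraries (SD, n = 3 each), with p = 0.6 in the exact permutation test. The ratio was 0.45 in LPS replicate 2 and -1.8 and -2.26 in LPS replicates 1 and 3.

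Enzymes of leukotriene synthesis are abundant in neutrophils and macrophages, and markers of both were read in the same libraries. Of the 19 neutrophil markers 13 were paired with an identifier and 10 were tested. Among these 9 had a log2 fold change above 0, the median was 2.05, and 1, S100A8, was called, against 0.0548% of all tested genes. At an unadjusted p below 0.05 edgeR gave 7 of the 10 as higher, against 6.18% of all tested genes. The summed level of the 13 was 33.2 to 48.0 CPM in the CON libraries and 194, 109 and 355 CPM in LPS replicates 1, 2 and 3. Of the defining markers, MMP8 was not tested. It was at 0 counts in all 3 CON libraries and had 18, 5 and 271 counts in LPS replicates 1, 2 and 3. ELANE, the only tested neutrophil marker with a log2 fold change below 0 (-0.66), had mean levels of 1.44 CPM in CON and 0.973 CPM in LPS libraries. MPO, also not tested, had means of 0.977 CPM in CON and 0.618 CPM in LPS libraries. Of the 12 tested Kupffer cell or macrophage markers 11 had a log2 fold change below 0, with a median of -0.48. Of these 12 markers edgeR called 0, and 3 were lower at an unadjusted p below 0.05, against 6.33% of all tested genes. The summed level of the 12 was 2013 to 3261 CPM in the CON libraries and 1378 to 2318 CPM in the LPS libraries. LTA4H and PTGES were highest in LPS replicate 3, where the neutrophil sum was highest, whereas ALOX5AP had near-equal levels in LPS replicates 2 and 3 (7.69 and 7.51 CPM), the LPS libraries with the lowest and the highest neutrophil sum. The part of either cell type in these values was not tested. The other marker lists had median log2 fold changes of -0.25 for hepatocytes, -0.42 for endothelium, 0.24 for cholangiocytes and stellate cells, -0.20 for T and NK cells, -0.48 for B and plasma cells, and 1.3 for red cells and platelets.

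Levels of different genes were compared per length, as RPKM (CPM per kilobase of the gene length in the deposited table). In the CON group PTGES3 was the most abundant, at 25.9 ± 9.2 RPKM (mean ± SD, n = 3), above HPGD at 12.7 ± 2.0 and LTA4H at 7.34 ± 1.89, and the ranges of these neighbours did not overlap. PTGES2 (6.50 RPKM), ALOX5AP (4.55 RPKM), PTGS1 (3.50 RPKM), PTGES (2.57 RPKM) and PLA2G4A (1.55 RPKM) followed, and each overlapped the neighbour above it. PTGS2 (0.646 ± 0.255 RPKM) and ALOX5 (0.484 ± 0.203 RPKM) lay below all of these and overlapped each other. PTGES3 stood at the 89.7th percentile of all tested genes by CON level, PTGS2 at the 13.1st and ALOX5 at the 8.96th. In the LPS group PTGES3 again had the highest mean, at 28.4 ± 6.0 RPKM, followed by LTA4H at 22.3 ± 18.2. HPGD was sixth at 7.36 ± 6.23 RPKM, and each gene overlapped its neighbour in this order.

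The spread among the LPS libraries divided the set. The standard deviation of log2(CPM + 0.5) was 2.12 for PTGS2, 1.35 for PTGES, 1.32 for LTA4H, 1.17 for PLA2G4A and 1.12 for HPGD, and these 5 genes lay above 90.8% or more of all tested genes. For PTGES3 (0.31), ALOX5 (0.20) and ALOX5AP (0.43) it was below the median of all tested genes, 0.50. Among the CON libraries the 10 genes ranged from 0.22 for HPGD to 0.50 for ALOX5AP, with a median over all tested genes of 0.34.

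By likeness of profile, measured as Pearson's correlation of log2(CPM + 0.5) over the 6 libraries, the nearest genes with a symbol were POLR3D for PTGES (0.997), C15orf48 for LTA4H (0.997) and MFSD8 for HPGD (0.9985). For PLA2G4A it was HBP1 (0.998), for PTGS2 it was BMP10 (0.990) and for ALOX5AP it was GATAD1 (0.990). Each is the highest correlation among all tested genes with a symbol, over 6 points that share depth and group, and is given as a description. C15orf48 had 6.35, 3.91 and 3.16 CPM in the CON libraries and 12.2, 4.25 and 33.2 CPM in the LPS libraries, with a log2 fold change of 1.9 that did not pass edgeR's test (adjusted p = 0.291).

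Other genes of the pathway were read from lists of genes chosen by role, also with earlier results of these data known. Among 18 tested genes (of 32 listed) of arachidonic acid release and reuptake, edgeR called 0, and at an unadjusted p below 0.05 gave 2 higher and 1 lower, where 6.18% of all tested genes were higher and 6.33% lower, with a median log2 fold change of -0.28. PLA2G2D, a secreted phospholipase A2, had 5.09, 5.16 and 14.8 CPM in the CON libraries and 74.4, 77.7 and 142 CPM in LPS replicates 1, 2 and 3. All 3 LPS libraries lay far above the CON libraries, LPS replicate 2 included. In 6.52% of all tested genes the LPS libraries all lay above the CON libraries. The log2 fold change of 3.54 ± 0.52 (SE) had an edgeR adjusted p of 0.0577 and missed the threshold. DESeq2 called it (adjusted p = 1.58e-09), as did edgeR without LPS replicate 2 (0.00401), without LPS replicate 3 (0.0218), with libraries scaled to total counts (0.0294) and without the filter on low counts (3.03e-13). With LPS replicate 1 or any single CON replicate left out, edgeR did not call it (adjusted p from 0.165 to 0.563). The related secreted enzyme PLA2G2A had 0 counts in all 6 libraries, and how reads shared between such relatives were counted is not given. PLA2G2D also lies within the annotated span of another relative, PLA2G5. That gene had 0 counts in all 3 CON libraries and 0, 1 and 56 counts in LPS replicates 1, 2 and 3. The division of reads between PLA2G2D and PLA2G5 is therefore uncertain. LPCAT2, which returns fatty acids to phospholipids, had 8.73 ± 2.01 CPM in CON libraries against 3.56 ± 1.62 CPM in LPS libraries (SD, n = 3 each). The fitted value, -1.25 ± 0.44 on the log2 scale (SE), had an edgeR adjusted p of 0.300.

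Downstream of the cyclooxygenases, edgeR called 0 of 4 tested other prostanoid synthases, 0 of 6 genes of prostanoid breakdown and transport and 0 of 3 prostanoid receptors. At an unadjusted p below 0.05 it gave 1 synthase of 4, 1 breakdown or transport gene of 6 and 1 receptor of 3 as higher. The share over all tested genes was 6.18%. It gave 1 breakdown or transport gene of 6 as lower, against 6.33% of all tested genes. The median log2 fold change of the breakdown and transport genes was -0.33, and -0.75 without LPS replicate 2. The median log2 fold change of the synthases was -0.18, and 0.04 without LPS replicate 1. That of the receptors was 0.45, and it ranged from -0.14 without LPS replicate 2 to 1.26 without CON replicate 3, being -0.01 without CON replicate 2 and 0.11 without LPS replicate 1. PTGIS, the prostacyclin synthase, had 5.09, 8.75 and 4.35 CPM in the CON libraries and 11.1, 11.9 and 20.8 CPM in the LPS libraries. Its groups did not overlap, with LPS higher, as in 6.52% of all tested genes. Its log2 fold change was 1.29 ± 0.42 (SE, edgeR, adjusted p = 0.263). The prostacyclin receptor PTGIR had a log2 fold change of 1.26 ± 0.51 (SE, edgeR, adjusted p = 0.356). LPS replicates 1, 2 and 3 held 7.85, 5.24 and 18.6 CPM of it, and the CON libraries 4.51 ± 1.20 CPM (SD, n = 3). The other tested receptors were PTGER4, a prostaglandin E2 receptor, with a log2 fold change of 0.45 ± 0.55 (SE), and TBXA2R, the thromboxane receptor, with -0.04 ± 0.44 (SE). Among the remaining synthases, AKR1B1 (-0.19 ± 0.33, SE) and CBR3 (-0.89 ± 0.62, SE) had log2 fold changes with p above 0.05.

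Prostaglandin reductase 1 (PTGR1), which acts after HPGD and also inactivates leukotriene B4, had 83.3, 96.7 and 73.6 CPM in the CON libraries and 19.8, 26.5 and 47.2 CPM in the LPS libraries. All 3 LPS libraries lay below all 3 CON libraries, LPS replicate 2 included, as in 9.8% of all tested genes. The log2 fold change was -1.43 ± 0.37 (SE), with an unadjusted p of 0.00329 and an adjusted p of 0.2 in edgeR. DESeq2 called PTGR1 lower (adjusted p = 0.0334), where 0.951% of its genes were called lower. So did edgeR without LPS replicate 3 (log2 fold change -1.85, adjusted p = 0.0408), where 0.151% were called lower. With no filter for low counts edgeR called it too (adjusted p = 0.0113), where 1.48% were called lower. PTGR1 was called in these 3 of 13 alternatives, and the adjusted p reached 0.670. It was not called by limma-voom (adjusted p = 0.177) or by edgeR without LPS replicate 2 (adjusted p = 0.0813). The interval of HPGD reached above 0 and that of PTGR1 did not, but a difference between both genes was not tested.

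**Figure D4:**
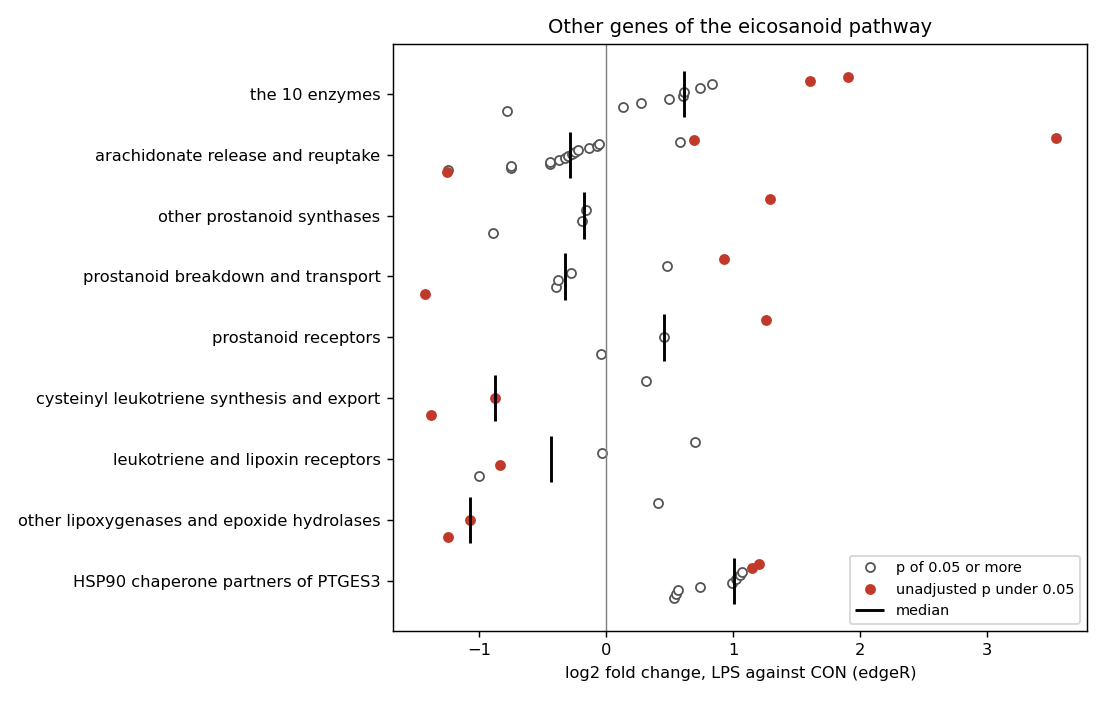
log2 fold changes (LPS against CON, edgeR, all 6 libraries) of every tested gene in the set of 10 and in 8 lists of related genes, 1 point per gene, red for an unadjusted p under 0.05, with a black line at each median. The 10 HSP90 partners all lie above 0 with a median of 1.01, and the 3 tested genes of the list with the epoxide hydrolases have a median of -1.07.

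On the leukotriene side, 0 of 3 tested genes of cysteinyl leukotriene synthesis and export, 0 of 4 leukotriene and lipoxin receptors and 0 of 3 other lipoxygenases and epoxide hydrolases were called by edgeR with all 6 libraries. At an unadjusted p below 0.05 none was higher, and 2, 1 and 2 genes of these lists were lower, against 6.33% of all tested genes. The list medians were -0.88, -0.44 and -1.07. The first was -0.11 without LPS replicate 1 and -0.43 without CON replicate 2, and the second -0.11 without LPS replicate 3. LTC4S, the leukotriene C4 synthase, had 0 counts in every library, which allows up to 0.205 CPM in the deepest library and 0.654 CPM in the shallowest (3 counts, counting error only). MGST2, a microsomal enzyme that can also make leukotriene C4, had 11.9 ± 2.5 CPM in CON libraries against 4.56 ± 3.06 CPM in LPS libraries (SD, n = 3 each). Its log2 fold change was -1.38 ± 0.48 (SE, edgeR, adjusted p = 0.294), and without LPS replicate 2 edgeR called it (-2.01, adjusted p = 0.0248). MGST3 had a log2 fold change of -0.88 ± 0.34 (SE, edgeR, adjusted p = 0.341). Of the receptors, CMKLR1, which binds resolvin E1 and chemerin, had -0.84 ± 0.37 (SE) and CYSLTR2, a cysteinyl leukotriene receptor, had -1.01 ± 0.50 (SE), with edgeR adjusted p of 0.397 and 0.460.

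The epoxide hydrolases EPHX1 and EPHX2, the latter of which hydrolyses the epoxides of arachidonic acid, were abundant in CON liver. EPHX2 had 231, 131 and 150 CPM in the CON libraries and 49.5, 77.9 and 88.1 CPM in the LPS libraries. EPHX1 had 1026 ± 122 CPM in CON libraries against 487 ± 161 CPM in LPS libraries (SD, n = 3 each). For both genes every LPS library lay below every CON library, as in 9.8% of all tested genes. LPCAT2, MGST2, MGST3 and CMKLR1 also lay apart in this way. The log2 fold changes of -1.25 ± 0.36 (SE) for EPHX2 and -1.07 ± 0.35 (SE) for EPHX1 had edgeR adjusted p of 0.221 and 0.266. Without the filter on low counts EPHX2 had an edgeR adjusted p of 0.0469, where 1.48% of the genes tested in that fit were called lower.

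As PTGES3 acts with HSP90, 10 genes of that chaperone system were read beside it. All 10 had a log2 fold change above 0, with a median of 1.01 against 0.14 for PTGES3, and edgeR called 0 of them with all 6 libraries, 2 being higher at an unadjusted p below 0.05, against 6.18% of all tested genes. The median of the 10 was 0.44 without LPS replicate 3 and 1.37 without LPS replicate 2. HSP90AA1 had 1006, 593 and 1052 CPM in the CON libraries and 2058, 818 and 3242 CPM in LPS replicates 1, 2 and 3, a log2 fold change of 1.21 ± 0.49 (SE, edgeR, adjusted p = 0.360). STIP1, a co-chaperone linking HSP70 and HSP90, had a log2 fold change of 1.15 ± 0.50 (SE, edgeR, adjusted p = 0.388). In both genes LPS replicate 2 lay within or below the CON range, and without that library edgeR called 4 of the 10 chaperone genes higher, among them HSP90AA1 and STIP1, where 3.76% of the genes tested in that fit were called higher.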

How the data were processed

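Input RNA of 3 CON and 3 LPS liver libraries was compared. The authors deposited raw read counts for 31908 Ensembl pig genes, with coordinates and gene length in bases. The processing notes of the submitters name cutadapt 1.9.3 and HISAT2, and list the builds galGal6 and hg38 without a role. The sources used here name no pig build, counting program or strand setting. CON replicates 1 and 2 have 2 entries each in the labels and 1 column each. No sample column (0) remained without a library, and 7 m6A-IP samples were not used here. A table of gene names paired 15029 identifiers with a symbol.

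The groups were compared by edgeR 4.0.16 under R 4.3.3 (filterByExpr with a minimum count of 10, TMM, robust dispersions, glmQLFit and glmQLFTest), and p-values were adjusted by the Benjamini-Hochberg method over all 12774 tested genes. Standard errors come from the ratio of the log2 fold change to the root of its F statistic. Within-library ratios used counts plus 0.5 and a two-sided exact permutation test. Alternatives were RLE factors, total counts, other filters, a block for the replicate number, voom from limma 3.58.1, DESeq2 1.42.0, and leaving out each library. The fits were tested on simulated data. The members and the gene and marker lists were written with earlier results of these data known. Named were the 10 genes, in each other list the 2 tested genes with the smallest p and the most abundant one, every called gene, and for likeness the closest profiles. PLA2G2A, PLA2G5, LTC4S, ELANE and MPO were named after their values were seen. The values of 1 gene that the rule names are not reported here.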

Additional observations from a re-analysis of the deposited data

How the results depend on the processing

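With all 6 libraries and the filter on low counts edgeR called 7 genes higher and 0 lower. It called 8 and 1 with RLE factors, 11 and 1 with total counts, 536 and 349 without the filter, 0 and 0 with at least 10 counts in every library, and 42 and 9 with the replicate block, PLA2G2D among the first (adjusted p = 0.0021). DESeq2 called 275 and 141, and limma-voom 2 and 0. Leaving out 1 library gave 0 to 512 higher and 0 to 470 lower genes, with the largest counts without LPS replicate 2. The cause was not tested. Of the 10 enzymes 0 were called, 2 without the filter, and 0 to 3 when 1 library was left out, 3 without LPS replicate 2. Same-numbered libraries did not deviate together (correlations of -0.239, 0.219 and 0.0289), against -0.251 to 0.22 for other pairs, and not every library correlated best with its own number, so the numbers were not taken to pair the libraries.

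Of 127 alternative values for the 10 genes, 117 kept their direction and side of the threshold, 5 passed it and 5 changed sign. The last were PTGS2 with the replicate block (-0.41) and without LPS replicate 3 (-2.11 to 1.36 over libraries left out), PLA2G4A without LPS replicate 3 (-0.38 to 0.70), and PTGES3 with total counts (-0.0296) and without CON replicate 2 (-0.0251 to 0.46). Of 227 values for the other named genes, read after the data were seen, 211 were unchanged in this sense, 13 passed the threshold and 3 changed sign, all for TBXA2R (0.12, 0.03 and 0.30 without CON replicate 3, LPS replicate 1 and LPS replicate 3, in a range from -0.54). With 1 library left out, the LPS minus CON difference in log2 ratio ranged from -2.65 to -0.36 for PTGS2 to PTGS1, -1.46 to 1.40 for PTGS2 to HPGD, 0.85 to 1.95 for PTGES to PTGES3 and -1.32 to 0.0358 for ALOX5AP to LTA4H. PTGS2 and ALOX5 rest on the fewest counts, 234 and 93 over all libraries, and with PLA2G4A they had no value under the filter of at least 10 counts in every library. Of 56 alternative medians of the other lists 8 moved by more than the spread between libraries. Calling without a fold threshold or above 2-fold gave 7 and 0 genes each time.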
